A study of Mus musculus with 2148 samples.

Results

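Cycling medullary thymic epithelial cells (mTEC) of adult mice were chosen by their own transcripts: a cell was a member if at least 5 of the 7 genes Mki67, Top2a, Ccnb1, Cdk1, Birc5, Cenpf and Ube2c stood at 20 CPM (its counts scaled to the cell's total) or more. The rule found 52 cells, which were 3.54% of the adult mTEC and 2.63% of the cells of the series. Of the 52, 39 were wild-type (WT) mTEChi, 12 were Aire-KO mTEChi, 1 was an Aire-KO mTEClo and 0 were WT mTEClo. They were compared with non-cycling cells, which reached 20 CPM in 0 or 1 of the 7 genes and made up 81% of the adult mTEC; 630 of these lay on plates that also held a cycling cell. The remaining 15.5% had 2 to 4 of the 7 genes.

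The cells came from the thymus of C57BL/6 mice and were sorted one to a well as CD45-negative, EpCAM-positive and Ly51-negative cells with high (mTEChi) or low (mTEClo) surface MHC class II. Each was sequenced by RamDA-seq, which covers whole transcripts and also captures RNA without a poly(A) tail. WT mTEChi were from males of 4, 5 and 6 weeks and females of 4 weeks, and WT mTEClo from males of 4, 5 and 8 weeks. Both Aire-KO sorts were from males of 5 weeks deficient in Aire, a transcriptional regulator. No label numbers the mice, so cells of a group with the same age and sex formed 1 pool, which may hold several mice. Each Aire-KO sort is 1 pool, and no cycling WT cell was 5 weeks old, so age and genotype cannot be told apart in the cycling cells.

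A dividing cell first copies its DNA, using the MCM helicase, enzymes that make deoxynucleotides and new histones, and then separates its chromosomes, using cyclin B with Cdk1, kinesins, the kinetochore and the anaphase-promoting complex. Dividing medullary cells that express Aire are known as transit-amplifying cells. Mature mTEC express Aire together with many genes of other tissues and display the products on MHC class II, and some take on features of tuft cells, keratinocytes, enterocytes or other lineages, which are called mimetic cells.

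Promoters of genes that peak late in the cell cycle often hold a cell cycle genes homology region (CHR), bound by the MuvB complex, and CCAAT boxes, bound by NF-Y. RefSeq promoters on GRCm38.p6, 300 bases from 250 before to 50 after the start, were searched on both strands for the CHR letters TTTGAA and TTTAAA and for CCAAT; the second CHR form reads the same on both strands. All 7 rule genes held a CHR match, against 27.6% of 32851 promoters, and 6 of 7 held at least 2 CCAAT matches, against 11.7%. In the last 60 bases before the start, 4 of 7 held a CHR match, against 5.78%. Those 4 are printed because they hold a match in these 60 bases. Shown are the 110 bases before the start, 5′ to 3′, with CHR and CCAAT matches of either strand in capitals.
Top2a (chr11:99024190-99024299, minus strand): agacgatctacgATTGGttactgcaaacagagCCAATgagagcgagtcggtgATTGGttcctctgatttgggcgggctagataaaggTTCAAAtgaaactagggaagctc
Ube2c (chr2:164769819-164769928, plus strand): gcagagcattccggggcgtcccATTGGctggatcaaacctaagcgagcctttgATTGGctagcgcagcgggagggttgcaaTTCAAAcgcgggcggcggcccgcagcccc
Cdk1 (chr10:69352913-69353022, minus strand): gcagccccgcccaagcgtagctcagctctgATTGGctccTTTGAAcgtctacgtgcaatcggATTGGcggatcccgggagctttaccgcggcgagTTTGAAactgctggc
Ccnb1 (chr13:100786487-100786596, minus strand): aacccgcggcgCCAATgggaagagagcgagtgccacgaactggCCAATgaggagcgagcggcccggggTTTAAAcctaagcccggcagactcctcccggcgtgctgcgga
The CHR match nearest the start lay 23 bases before it in Top2a, 29 in Ube2c, 15 in Cdk1 and 42 in Ccnb1. Birc5, whose protein survivin rides on mitotic chromosomes, was the rule gene with no CCAAT match. Of 36 promoters of other mitosis genes, 28 held a CHR match (77.8%), and of 31 promoters of DNA replication genes 7 did (22.6%). A match says only that these letters are in the window.

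The 52 cells held 297636 to 1410296 counts on genes. WT cycling mTEChi had a median of 947584 counts and 14063 detected genes, against 738454 counts and 13176 genes in non-cycling cells of the same plates. Aire-KO cycling mTEChi had 827564 counts and 13906 genes, against 601231 and 12073. The comparison needed at least 3 cells of each state, which 3 pools had: the WT pools of 4 and 6 weeks and the Aire-KO pool. In all 3 pools the cycling cells had more counts, with a difference of 222578 ± 38137 (SD, n = 3) between medians, and more genes, by 1321.33 ± 444.2. After thinning each cell to 200000 counts they still had 754.5 ± 303.9 more genes. The exact two-sided sign-flip permutation test over 3 pools gave p = 0.25 for each, the smallest it can give. Over 7 plates the thinned gene count was 7.99% higher, in 7 of 7 plates (exact permutation p = 0.0156, the smallest possible). Some of these plates may share mice, and none is of the 6-week pool.

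Of the 52 cells, 51 were mTEChi. In WT males of 4 weeks 35 cells cycled (7.88%, exact 95% interval 5.55 to 10.8%), on 6 plates of 64 to 87 cells that ranged from 2.30% to 12%. In WT males of 6 weeks 3 of 82 cells cycled (3.66%, exact 95% interval 0.761 to 10.3%), in females of 4 weeks 1 of 82 (1.22%, exact 95% interval 0.0309 to 6.61%), and in males of 5 weeks 0 of 12, which allows a share of up to 25%. WT mTEClo, 5 plates of 66 to 77 cells, held 0 cycling cells, which allows up to 0.840% over all of them, and 98% of the WT mTEClo had 0 or 1 of the 7 genes. The intervals cover counting error only. The mean share was 3.19 ± 3.48% (SD, n = 4 pools) in WT mTEChi and 0% in each of 3 WT mTEClo pools. This difference was not larger than the spread between pools (exact two-sided permutation test, p = 0.26, smallest possible 0.0286). The test gives the pool of 12 cells the same weight as the others. Without that pool the difference was 4.25 percentage points (same exact test, p = 0.1, the smallest possible). With the threshold at 10 CPM and all pools, the means were 6.33 ± 3.14% and 0%, and the same exact test gave p = 0.0286. The sorts also differed in age and lay on different plates, so these tests do not separate sort from age or plate. The WT mTEClo were males of 4, 5 and 8 weeks, and no mTEChi was 8 weeks old. Among males of 4 weeks, 0 of 66 mTEClo cycled, beside 7.88% of mTEChi.

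In Aire-KO mTEChi 12 cells cycled (3.55%, exact 95% interval 1.85 to 6.12%), unevenly over 4 plates of the same pool. Plate 14 held 9 of 84 (10.7%) and plate 8 held 3 of 86 (3.49%), while plates 7 and 13 held 0 of 81 and 0 of 87, which allow up to 3.70% and 3.45%. With 1 Aire-KO pool the genotypes' shares cannot be tested. The single Aire-KO mTEClo cell came from plate 11, where it was 1 of 81.

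**Figure D1:**
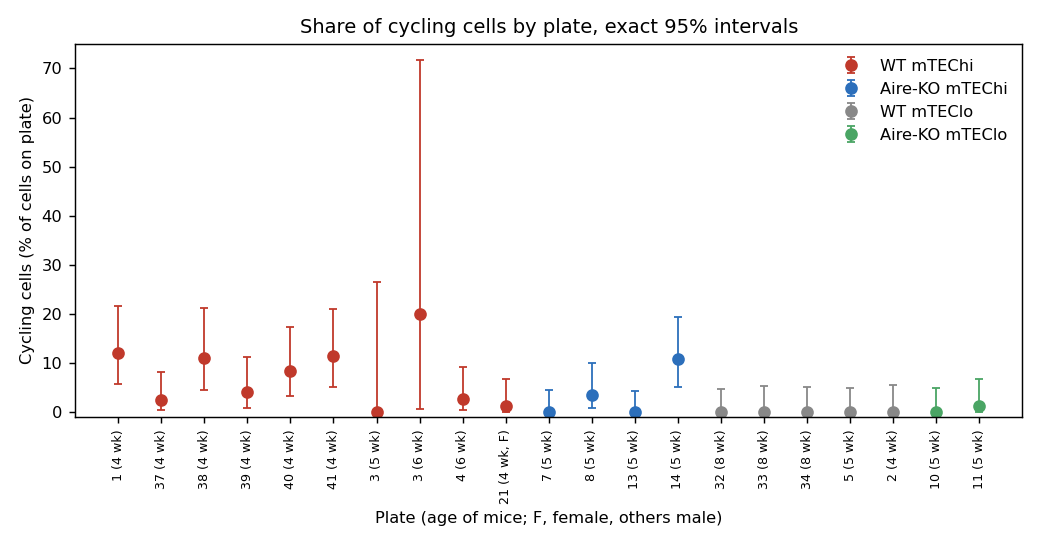
Share of the cells on each plate that met the rule (y axis, percent), by plate, age and sort (x axis), with exact 95% binomial intervals as bars. The 5 WT mTEClo plates sit at 0, the 4 Aire-KO mTEChi plates between 0 and 10.7%, and the 6 plates of 4-week WT males between 2.30 and 12%.

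The values that chose the cells are a description. Mki67, which coats mitotic chromosomes, ran from 59.9 to 2685 CPM in WT cycling mTEChi (median 1264.5) and from 483.04 to 2132 in Aire-KO cycling mTEChi (median 1462.2). Top2a, the topoisomerase that untangles copied DNA, had medians of 593.4 and 1258.9 CPM. Ccnb1, cyclin B1, reached 20 CPM in 25 of 39 WT and 9 of 12 Aire-KO cycling cells, and in 0 of 630 non-cycling cells. Ube2c, the ubiquitin-conjugating enzyme of the anaphase-promoting complex, reached it in 3 non-cycling cells and Mki67 in 91. Of the members, 30 had all 7 genes, 13 had 6 and 9 had 5. Just outside were 21 cells with 4 of the genes. Their medians were 133.5 CPM for Mki67, 86.2 for Top2a and 2.05 for Ccnb1, against 483.04, 171.9 and 3.79 in the 9 cells with 5 genes. The rule cuts a continuous range of values.

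Replication and mitosis genes that the rule did not name move with those it did, so they too are described with no test. Values below are CPM of the counts summed over cells, in the order 4-week WT, 6-week WT and Aire-KO pool. Of 42 mitosis genes, 41 were higher in cycling cells in all 3 pools (median log2 fold change 4.98). Ccna2, cyclin A2, had 273.7, 210.99 and 301.6 CPM against 2.41, 1.0 and 1.53 in non-cycling cells, and Cdc20, an activator of the anaphase-promoting complex, 210.5, 364.9 and 298.3 CPM against 2.03, 2.97 and 2.48. The exception was Pttg1, securin, with 31.2, 69.7 and 22.5 CPM against 37.8, 34.5 and 41.6.

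Of 33 DNA replication genes, 30 were higher in all 3 pools (median log2 fold change 2.70). Mcm5, a helicase subunit, had 233.4, 257.4 and 131.99 CPM against 15.3, 12.4 and 9.74, and Rrm2, the regulated subunit of ribonucleotide reductase, 215.4, 105.8 and 133.6 CPM against 3.86, 3.03 and 2.49. Tk1, thymidine kinase, was less separated, with 100.8, 53.1 and 108.8 CPM against 60.5, 61.2 and 90.5. Of 65 replication-dependent histone genes 56 passed the filter on low counts, and 45 of these were higher in all 3 pools (median 2.73). Hist1h1b, a linker histone, had 58.7, 20.6 and 52.8 CPM against 0.983, 1.10 and 1.45. Histone genes are near copies of each other, so reads may be split among them.

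The cycling cells differed in which of these groups was high. The summed mitosis genes of the 51 cycling mTEChi stood at 2.24 to 43 times the median of non-cycling mTEChi (345.2 CPM), with a median of 20.4 times. The summed replication genes stood at 1.21 to 23.1 times theirs (365.2 CPM), with a median of 3.98 times. Of the 51 cells, 49 exceeded every non-cycling cell in the mitosis sum, 17 in the replication sum and 5 in the histone sum. Over the 51 cells the replication and mitosis sums had a Spearman's rho of -0.39, a description only, since the cells share plates and each value is a share of the cell's total. The 30 cells with all 7 genes had medians of 1322.6 CPM for replication and 8444 CPM for mitosis, and the 8 mTEChi with 5 genes 2995 and 3097 CPM. Among mTEChi with 2 to 4 genes, 9 cells (4.19%) exceeded every non-cycling cell in the replication sum and 6 in the mitosis sum.

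**Figure D2:**
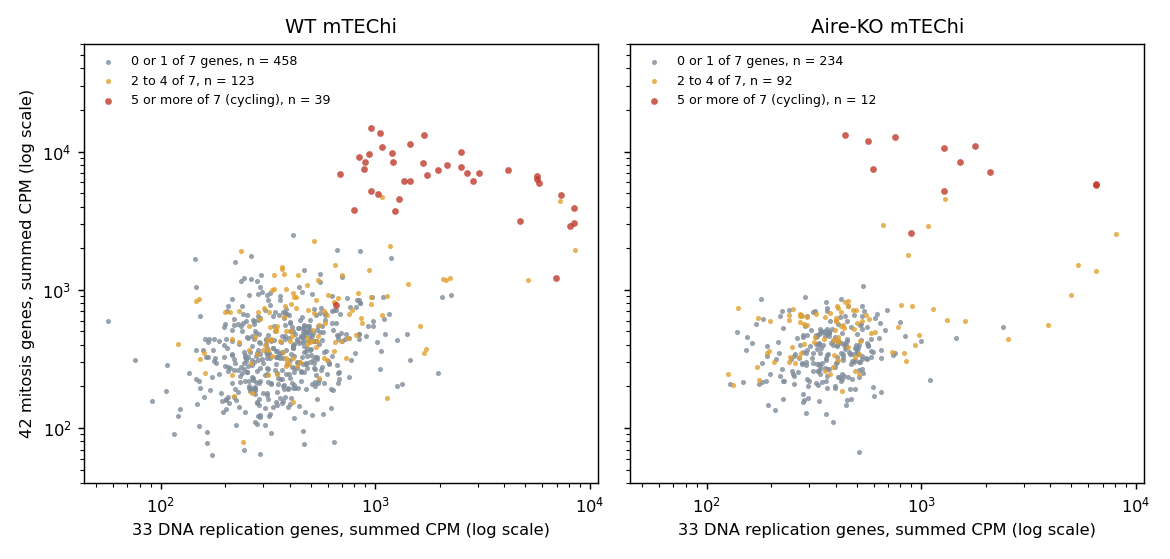
Summed CPM of 33 DNA replication genes (x axis, log scale) against summed CPM of 42 mitosis genes (y axis, log scale) in each adult mTEChi of all plates, WT and Aire-KO in separate panels, coloured by the number of rule genes at 20 CPM or more. The cycling cells lie above nearly all others on the y axis and spread along the x axis from 1.21 to 23.1 times the non-cycling median.

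Differences in all other genes were tested on counts summed per pool and state, with edgeR's quasi-likelihood test and the pool as a block. A call required an adjusted p below 0.05 (Benjamini-Hochberg) together with a change of 2-fold or more, and the 7 rule genes were left out. Of 29403 genes tested, 2.61% were higher and 2.36% lower in cycling cells, around a median log2 fold change of -0.39. Among the 11616 genes with a mean of 10 CPM or more over the 6 sums, 6.46% were higher and 3.84% lower, around a median of 0.14. The background of a list thus depends on the level of its genes. With RLE in place of TMM scaling the shares were 1.84% and 2.94% and the median -0.56, and with limma on the mean log2(CPM + 1) per cell 19.5% and 4.87%. Over the 7 plates with at least 3 cells of each state the shares were 5.95% and 23.1%. Of these plates 5 are of the 4-week WT pool, 2 of the Aire-KO pool and 0 of the 6-week WT pool, so every value over plates differs from the main one in the unit and in the pools used; the fit over pools without the 6-week pool gave 3.98% and 6.71%. Those plate calls took in 85.4% of the higher and 99.3% of the lower pool calls that could be tested there. The plate sums hold cells that are also in the pool sums, and plates of 1 pool may share mice, so this overlap is no independent support. Outside the lists, the 10 largest higher calls were Pimreg, Iqgap3, Kif18b, Cep55, Dlgap5, Espl1, Pif1, Kif14, Knl1 and Cdca2. Kif14 and Kif18b are mitotic kinesins, Knl1 is a kinetochore scaffold, and Espl1 is separase, with 152.4, 117.1 and 207.3 CPM against 1.26, 1.38 and 2.29. These genes also follow the rule genes, so no test is given for them.

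**Figure D3:**
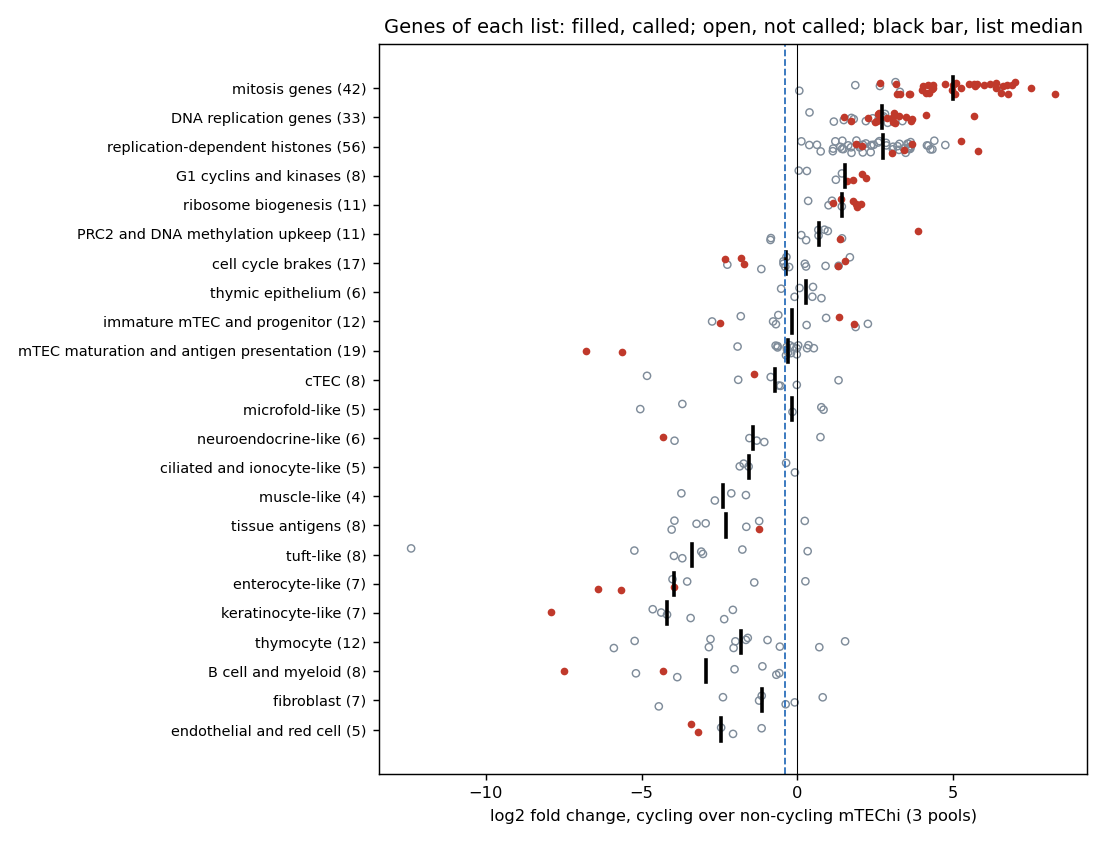
Log2 fold change of cycling over non-cycling mTEChi (x axis; edgeR, 3 pools) for each tested gene of 23 lists (y axis). Filled points are called genes, black bars are list medians and the dashed line is the median of all tested genes at -0.39. List medians run from 4.98 (mitosis) to -4.18 (keratinocyte-like). The median of genes with a mean of 10 CPM or more, 0.14, is not drawn.

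Genes that carry cells into the cycle were among those higher. The cells were chosen by cell cycle genes. Calls of other genes tied to the cycle, here and below, may therefore follow in part from that choice. Of 8 G1 cyclins, kinases and Myc genes, 4 were higher and 0 lower (median log2 fold change 1.51). Among all genes tested 2.61% were higher and 2.36% lower. Ccnd2, cyclin D2, had 1321.9, 1172.7 and 960.9 CPM against 425.9, 328.8 and 342.7 in non-cycling cells (log2 fold change 1.77 ± 0.14 SE, adjusted p = 0.0127). The pools' states did not overlap, but single cells did: WT cycling cells ran from 4.64 to 3064 CPM and WT non-cycling cells from 0 to 4027. Its partner kinase Cdk4 had 314.4, 216.3 and 263.8 CPM against 50.2, 61.6 and 75.5 (2.20 ± 0.26 SE, adjusted p = 0.0236). Ccnd1, cyclin D1 (2.07, adjusted p = 0.0373), and Myc, a transcription factor of growth (1.59, adjusted p = 0.0406), were also called, while Cdk6 (1.43, adjusted p = 0.0562) was not. The calls of Ccnd1 (adjusted p = 0.11) and Myc (adjusted p = 0.14) were lost without the 4-week WT pool. The call of Myc (adjusted p = 0.0527) was lost without the 6-week WT pool. Without the 6-week WT pool, Cdk6 (adjusted p = 0.0172) was called.

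Genes that restrain the cycle did not move together: of 17, 3 were lower and 2 higher (median -0.35), beside 2.36% and 2.61% of all genes tested. Txnip, an inhibitor of thioredoxin and of glucose uptake, had 77.2, 91.2 and 57 CPM against 256.9, 291.4 and 248.5 (-1.73 ± 0.18 SE, adjusted p = 0.02). The kinase inhibitors Cdkn2b (-1.81, adjusted p = 0.0413) and Cdkn1c (-2.32, adjusted p = 0.0346) were lower too. Cdkn1a, the inhibitor p21, had 30.1, 95.9 and 10.1 CPM against 163.1, 167.9 and 150.4, which missed the threshold over the 3 pools (-2.25 ± 0.59 SE, adjusted p = 0.0866) and passed it over plates, which hold no cell of the 6-week pool (-3.32, adjusted p = 0.00119). Its median was 5.28 CPM in WT cycling and 74.8 CPM in WT non-cycling cells, and 7 of 12 Aire-KO cycling cells had no read. Those called higher were Trp53, p53 (1.30, adjusted p = 0.041), and Rbl1, the pocket protein p107 (1.53, adjusted p = 0.0346). The call of Trp53 (adjusted p = 0.0907) was lost without the Aire-KO pool. Without the Aire-KO pool, Cdkn1a (adjusted p = 0.0205) was called. Without the 4-week WT pool, Cdkn1c (adjusted p = 0.10), Cdkn2b (adjusted p = 0.12), Rbl1 (adjusted p = 0.17) and Trp53 (adjusted p = 0.19) were no longer called. Cdkn1a (adjusted p = 0.0214) passed the threshold once the 6-week WT pool was left out.

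Ribosome production genes were higher in 7 of 11 cases and lower in 0 (median 1.42), beside 2.61% and 2.36% of all genes tested. Ncl, nucleolin, had 556.7, 361.9 and 558.5 CPM against 141.4, 154.8 and 162.3 (1.78 ± 0.23 SE, adjusted p = 0.0261), and no cycling mTEChi was below 137.3 CPM. Polr1b, a subunit of RNA polymerase I, had 83.3, 94.9 and 90.04 CPM against 23.5, 20.1 and 28.3 (2.02, adjusted p = 0.0214). Ncl (adjusted p = 0.0753) and Polr1b (adjusted p = 0.0707) were not called once the 4-week WT pool was left out.

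Polycomb repressive complex 2 (PRC2), which methylates histone H3, and genes of DNA methylation (Dnmt1 and Uhrf1, which maintain it, and Dnmt3a and Dnmt3b, which place it anew) formed a list of 11, of which 2 were higher and 0 lower (median 0.68). Both of those called act on DNA methylation. Like the replication genes, both may move with the rule genes, so their values are a description. Of all genes tested, 2.61% were higher and 2.36% lower. Uhrf1, which recognises hemimethylated DNA, had 341.8, 219.6 and 263.8 CPM against 31.7, 16.9 and 14.7 (3.88 ± 0.22 SE, adjusted p = 0.00646), and all 51 cycling mTEChi stood at 52.8 CPM or more. Dnmt1, the maintenance methyltransferase, had 317.5, 162.2 and 291.7 CPM against 97.3, 84.7 and 135.7 (1.37, adjusted p = 0.0404). Ezh2, the catalytic subunit of PRC2, had 110.4, 57.1 and 76.2 CPM against 44.3, 38 and 48, which missed the threshold over pools (0.97, adjusted p = 0.0911) and passed it over plates, without the 6-week pool (1.25, adjusted p = 0.00262). Its core partner Suz12 had 138.6, 112.5 and 132.8 CPM against 76.4, 79 and 72.3 (0.87, adjusted p = 0.0657), and Ezh1, the alternative catalytic subunit, 46.1, 26.5 and 47.1 CPM against 74.9, 80.03 and 75.8 (-0.87, adjusted p = 0.14). Without the Aire-KO pool, Dnmt1 (adjusted p = 0.051) was no longer called. The call of Dnmt1 (adjusted p = 0.17) was lost without the 4-week WT pool.

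Aire was checked against the genotype labels in every pool, with 997.4, 190.1 and 2.18 CPM against 1015.2, 1029.7 and 30.9. All 39 WT cycling cells stood above 20 CPM of Aire, from 52.2 to 2276 with a median of 789.4. Of the WT non-cycling cells 95.5% did so, with a median of 843.2 CPM and a range of 0.963 to 5487. The 3 cycling cells of the 6-week pool had 83, 333.1 and 52.2 CPM, and the female cell had 436.01. WT mTEChi with 2 to 4 rule genes had a median of 1554.1 CPM. Between states Aire was not called, in the WT pools alone (-1.22 ± 0.56 SE, adjusted p = 0.19) or with the Aire-KO pool (-1.92, adjusted p = 0.17); without the 4-week WT pool, which leaves the 3 cells of 6 weeks and the Aire-KO pool, it was called lower (-3.13, adjusted p = 0.0173). Of 12 Aire-KO cycling cells 3 had an Aire read, at most 18.4 CPM. Of the Aire-KO non-cycling cells 52.4% had one, at most 745.4 CPM. The counts do not show on which exons these reads lay.

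Of 19 maturation and antigen presentation genes, 0 were higher and 2 lower (median -0.30), beside 2.61% and 2.36% of all genes tested. Cd86, a co-stimulatory ligand for T cells, had 0.542, 0 and 0.495 CPM against 83.7, 77.7 and 19.5 (-6.78 ± 0.84 SE, adjusted p = 0.0249). A Cd86 read was present in 10 of 39 WT cycling cells, with at most 5.93 CPM, in 55.3% of WT cells with 2 to 4 rule genes and in 63% of WT non-cycling cells, with up to 1665.5 CPM. Ccl22, a chemokine, was the other called, with 2.80, 0.664 and 0 CPM against 98.6, 63 and 2.0 (-5.64 ± 0.60 SE, adjusted p = 0.021). Both were near the floor in the cycling sums, where a call can only be lower, so these calls are a description. Cd80, a ligand related to Cd86, had 158.7, 157.9 and 138.9 CPM against 256.4, 291.1 and 224.2 and was not called (-0.64, adjusted p = 0.0822). MHC class II transcripts were present in every cycling cell: H2-Aa ran from 698.6 to 2258 CPM in WT cycling and from 35.4 to 4241 in WT non-cycling cells, with pool values of 1197.1, 926.6 and 1131.7 CPM against 1440.2, 1488.3 and 1599.4 (-0.37, adjusted p = 0.21). The mTEChi sort selects high surface MHC class II, so the presence and overlap of H2-Aa may follow in part from the sort. Fezf2, another regulator of tissue antigens, had 431.3, 450.5 and 362.7 CPM against 362.2, 326.5 and 362.5 (0.35, adjusted p = 0.19). Without the 4-week WT pool, Cd86 (adjusted p = 0.0546) was no longer called.

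**Figure D4:**
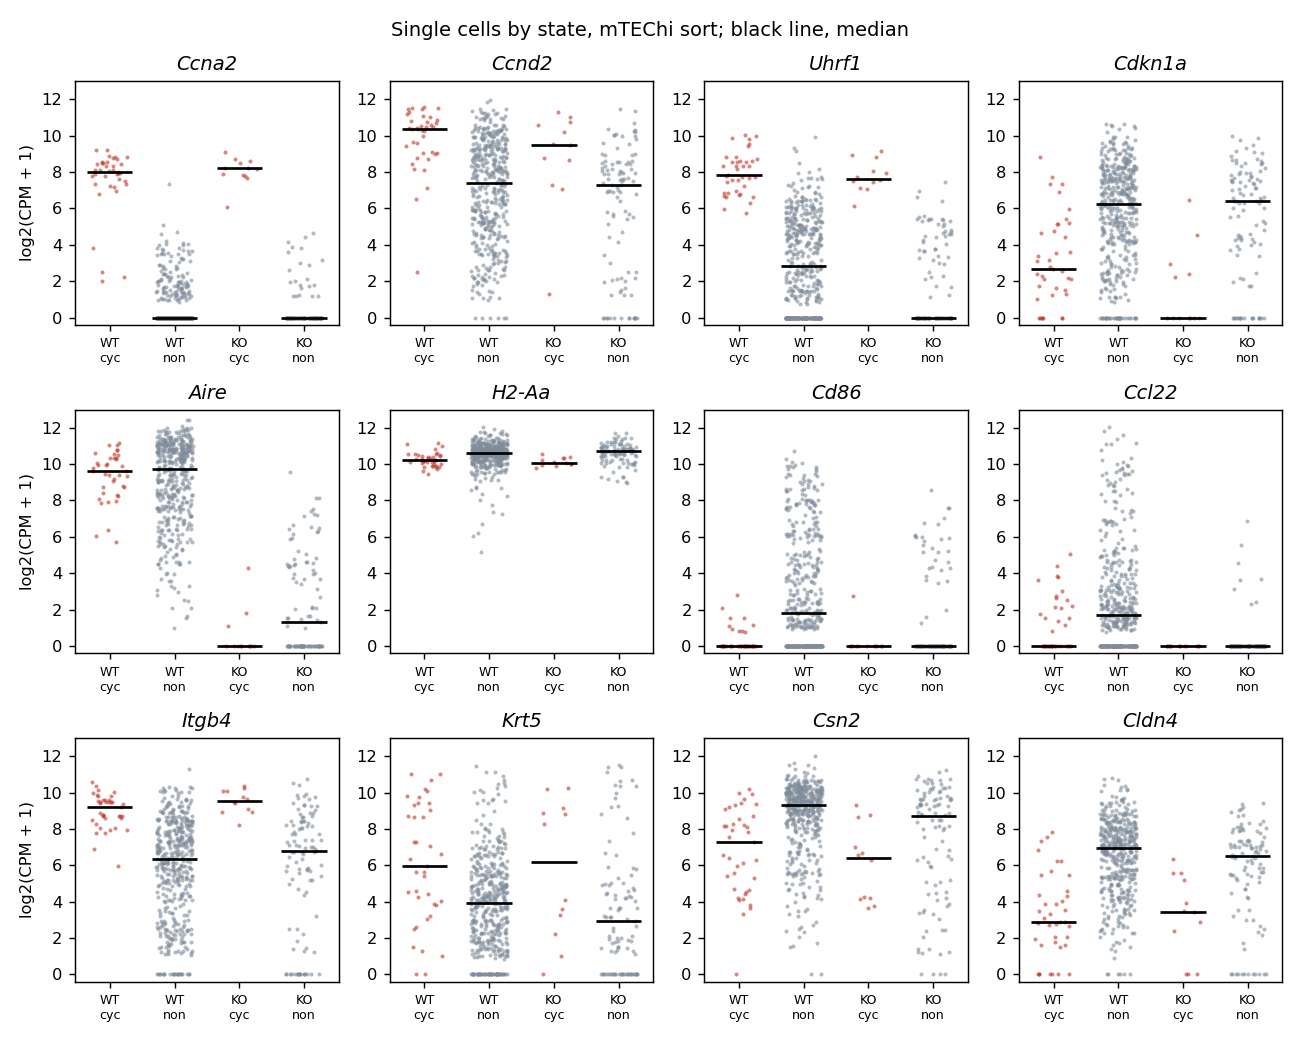
Log2(CPM + 1) (y axis) of 12 genes in single mTEChi, WT and Aire-KO, cycling and non-cycling on plates with a cycling cell (x axis). Each point is 1 cell and the black line is the median; Cd86 lies near 0 in cycling cells, Ccl22 reaches 20 CPM in 2 of 39 WT cycling cells, and the values of H2-Aa and, in WT, of Aire overlap between the states.

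Immature and basal mTEC genes moved both ways: of 12, 2 were higher and 1 lower (median -0.16), beside 2.61% and 2.36% of all genes tested. Itgb4, the integrin of hemidesmosomes, had 608.005, 436.9 and 795.8 CPM against 180.4, 136.9 and 246.7 (1.82 ± 0.15 SE, adjusted p = 0.0127). No cycling mTEChi was below 60.3 CPM, and the medians were 581.8 CPM in WT and 751.97 in Aire-KO cycling cells against 79.3 and 109.1 in non-cycling cells. Krt14, a basal keratin, was higher (1.33, adjusted p = 0.0361). Its partner keratin Krt5 had 322.2, 485.02 and 341.3 CPM against 91.9, 70.7 and 217.5 and missed the threshold (1.87 ± 0.40 SE, adjusted p = 0.0607); WT cycling cells ran from 0 to 2110 CPM, with 26 of 39 at 20 CPM or more. Cldn4, a claudin of tight junctions, was lower, with 28.7, 37.8 and 20.7 CPM against 179.7, 217.9 and 127.8 (-2.49 ± 0.18 SE, adjusted p = 0.011). Krt14 (adjusted p = 0.12) was not called once the Aire-KO pool was left out. Krt5 (adjusted p = 0.000467) passed the threshold once the Aire-KO pool was left out. Krt14 (adjusted p = 0.0643) was not called once the 4-week WT pool was left out. Without the 6-week WT pool, Krt14 (adjusted p = 0.0546) was no longer called.

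Of 6 genes of thymic epithelium in general 0 were higher and 0 lower by edgeR (at an unadjusted p below 0.05, 3 and 0; called over plates, 0 and 1). Over all genes tested, 2.61% were called higher and 2.36% lower. At an unadjusted p below 0.05 the shares were 10.5% and 19.2%, and called over plates 5.95% and 23.1%. Epcam had 491.9, 608.1 and 447.6 CPM against 391.6, 311.5 and 281.7 (0.77, adjusted p = 0.0562) and Foxn1, the transcription factor on which thymic epithelium depends, 305.4, 361.9 and 253.8 CPM against 249.1, 214.5 and 236.7 (0.50, adjusted p = 0.13). Of 8 genes of cortical cells (cTEC) 0 were higher and 1 lower (at an unadjusted p below 0.05, 1 and 4; called over plates, 0 and 5): Tbata, with 124.8, 132.04 and 153.7 CPM against 359.5, 334.6 and 478.4 (-1.39 ± 0.15 SE, adjusted p = 0.0212).

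Markers of mimetic lineages had list medians of -3.39 (tuft-like, 8 tested), -4.18 (keratinocyte-like, 7 tested), -3.95 (enterocyte-like, 7 tested), -1.42 (neuroendocrine-like, 6 tested), -0.16 (microfold-like, 5 tested), -2.39 (muscle-like, 4 tested) and -1.57 (ciliated and ionocyte-like, 5 tested) on the log2 scale. No member was called higher and 5 were called lower by edgeR over pools. In the same order of lists the calls lower were 0, 1, 3, 1, 0, 0 and 0 over pools and 6, 6, 4, 1, 2, 3 and 3 over plates. Over plates 5 neuroendocrine genes were tested. The members lower at an unadjusted p below 0.05 over pools were 4, 6, 5, 2, 2, 2 and 0. Of all genes tested, 2.36% were called lower over pools and 23.1% over plates, and 19.2% were lower at that unadjusted p. The shares higher were 2.61%, 5.95% and 10.5%. At that p 1 neuroendocrine and 1 microfold gene were higher, and over plates 1 neuroendocrine gene was called higher. Apoa1, an apolipoprotein of enterocytes, had 0.796, 0.332 and 0 CPM against 49.5, 54.1 and 2.38 (-6.40 ± 0.68 SE, adjusted p = 0.021), and Apoa4 (-5.67, adjusted p = 0.0292) and the nuclear receptor Hnf4g (-3.95, adjusted p = 0.0451) were also lower. Ivl, involucrin of the cornified envelope, was read in 1 of 39 WT cycling cells and in 15.6% of WT non-cycling cells (-7.92, adjusted p = 0.0303). Genes with almost no reads in cycling cells, such as Apoa1 and Ivl, could pass the filter through the non-cycling sums. They could be called only lower, so their calls are a description. Chga, chromogranin A of secretory granules, had 1.37, 2.65 and 1.09 CPM against 36.8, 79.7 and 13.6 (-4.32, adjusted p = 0.0212). Chga too was near the floor in the cycling sums, so its call is a description. Pou2f3, the regulator of tuft cells, had 4.43, 4.31 and 15.5 CPM against 60.04, 83.7 and 48.5 and was not called (-3.09, adjusted p = 0.0543). A fit that left out the Aire-KO pool called Pou2f3 (adjusted p = 0.0002). The call of Ivl (adjusted p = 0.0753) was lost without the 4-week WT pool.

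Within the same lists the transcription factors Insm1 and Spib had higher values in cycling cells without a call. Insm1, of the neuroendocrine list, had 299.9, 212.3 and 300.1 CPM against 133.9, 164.6 and 237.1 (0.74, adjusted p = 0.13), with medians of 308.6 CPM over WT cycling and 66.8 over WT non-cycling cells; over plates, without the 6-week pool, it was called (1.09, adjusted p = 0.00103). Spib, of the microfold list, had 586.3, 420.99 and 550.6 CPM against 322.9, 322.6 and 291.6 (0.84, adjusted p = 0.0669) and stayed under 2-fold over plates (0.80, adjusted p = 0.00278). Foxj1, a regulator of ciliated cells, was lower in 2 of 3 pools, with 28.5, 262.1 and 7.72 CPM against 40.03, 39.97 and 49.9; the high value belongs to the 3 cells of the 6-week pool.

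Of 9 tissue antigen genes 8 passed the filter on low counts, with a median of -2.29. Of these, 0 were higher and 1 lower, and at an unadjusted p below 0.05, 0 and 5. Over plates 9 were tested, of which 0 were called higher and 8 lower. All genes gave 2.61% and 2.36% over pools, 10.5% and 19.2% at that unadjusted p, and 5.95% and 23.1% over plates. Csn2, the milk protein beta-casein, had 267.3, 344.03 and 159.2 CPM against 654.2, 676.8 and 542.2 (-1.23 ± 0.19 SE, adjusted p = 0.0346). It was read in 38 of 39 WT cycling cells, with medians of 155.3 CPM in WT cycling cells, 699.6 in WT cells with 2 to 4 rule genes and 626.4 in WT non-cycling cells. Apob, an apolipoprotein, had 45.2, 2.65 and 0 CPM against 268.6, 82.1 and 6.55 (-3.95, adjusted p = 0.0545). The call of Csn2 (adjusted p = 0.0932) was lost without the Aire-KO pool. Without the Aire-KO pool, Apob (adjusted p = 0.000142) was called. Without the 4-week WT pool, Csn2 (adjusted p = 0.0713) was no longer called. Without the 4-week WT pool, Apob (adjusted p = 0.0491) was called.

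Outside the lists the 10 largest lower calls were Hrnr, Ano1, Lrrc15, Plcb2, Nlrp6, Slitrk6, Gulo, Cdhr2, Fam196b and Slc6a5. Hrnr, hornerin of the cornified envelope, had 0.255, 0 and 0 CPM against 47, 106.3 and 63, and Plcb2, a phospholipase of taste and tuft cell signalling, 0.319, 0 and 0 CPM against 49.8, 41.3 and 2.11. Single WT non-cycling cells ran from 0 to 2082 CPM of Hrnr (median 4.81) and from 0 to 2847 CPM of Plcb2 (median 0), and most of them had no read of Plcb2. These genes were chosen by their size in the non-cycling state, so they are a description. Plcb2 (adjusted p = 0.0753), Slitrk6 (adjusted p = 0.0546), Cdhr2 (adjusted p = 0.0626), Fam196b (adjusted p = 0.0523) and Slc6a5 (adjusted p = 0.0894) were not called once the 4-week WT pool was left out.

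The sort removes CD45-positive cells (thymocytes, B and myeloid cells) and EpCAM-negative cells (fibroblasts, endothelium). Transcripts of their markers were followed all the same. For all genes tested the shares called were 2.61% higher and 2.36% lower over pools, and 5.95% and 23.1% over plates. At an unadjusted p below 0.05 they were 10.5% and 19.2% over pools. Of 12 thymocyte markers 0 were higher and 0 lower by edgeR (at an unadjusted p below 0.05, 0 and 3, and called over plates, where 10 were tested, 0 and 4). They summed to 0.941 to 263.2 CPM (median 19.5) in WT cycling and 0 to 2531 (median 26) in WT non-cycling cells, and to 0 to 91.5 (median 11.4) and 0 to 885.8 (median 9.15) in Aire-KO. Ptprc, CD45, was at 0 in 35 of 39 WT and 12 of 12 Aire-KO cycling cells, and Cd3e, of the T cell receptor complex, in 36 of 39 and 12 of 12. Of 8 B cell and myeloid markers 0 were higher and 2 lower (at an unadjusted p below 0.05, 0 and 4; called over plates, 0 and 6), the receptors Flt3 (-4.30, adjusted p = 0.0437) and Adgre1 (-7.48, adjusted p = 0.0298); their sum ran from 0 to 674.4 CPM (median 22.5) in WT cycling and from 0 to 3882 (median 157.1) in WT non-cycling cells. Of 7 fibroblast markers 0 were higher and 0 lower by edgeR (at an unadjusted p below 0.05, 0 and 1; called over plates, 0 and 2), with median sums of 18.2 and 70.2 CPM in these sets. Of 5 endothelial and red cell markers tested 0 were higher and 2 lower (at an unadjusted p below 0.05, 0 and 2; called over plates, 0 and 3), Pecam1 (-3.42, adjusted p = 0.0472) and Tek (-3.20, adjusted p = 0.0353), with median sums of 2.40 and 7.75 CPM. Markers nearly absent from cycling cells could pass the filter through the non-cycling sums, so their lower calls are a description. Every WT cycling cell had at least 83.8 CPM of Epcam. What part these markers, or the higher counts per cell, have in the other differences was not tested. Without the Aire-KO pool, Flt3 (adjusted p = 0.12), Pecam1 (adjusted p = 0.19) and Tek (adjusted p = 0.0544) were no longer called. Ptprc (adjusted p = 0.0089) passed the threshold once the Aire-KO pool was left out. The calls of Adgre1 (adjusted p = 0.11), Flt3 (adjusted p = 0.21), Pecam1 (adjusted p = 0.15) and Tek (adjusted p = 0.14) were lost without the 4-week WT pool. Ptprc (adjusted p = 0.0476) passed the threshold once the 4-week WT pool was left out.

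The Aire-KO mTEClo cell had 1186270 counts on 14083 genes and 5 of the 7 rule genes. Its replication sum was 5927 CPM, its mitosis sum 2845 CPM and Ccnb1 was at 0. It held 1191.1 CPM of Krt5, 805.9 of H2-Aa, 281.6 of Itgb4 and 54 of Ccnd2, and no read of Aire, Cd86, Cldn4 or Csn2. A single cell allows no test.

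Among cycling mTEChi, the Aire-KO pool was compared with the 2 WT pools in 20458 genes, to ask whether Aire deficiency went with other transcripts in dividing cells. No gene was called by edgeR (0%), with 1 residual degree of freedom. At an unadjusted p below 0.05, 0.601% of genes were higher and 1.36% lower in Aire-KO, and DESeq2 called 14 genes higher and 0.582% of genes lower. Median log2 differences of Aire-KO minus WT were 0.30 for mitosis, -0.17 for DNA replication, 0.79 for histone and 0.07 for PRC2 and DNA methylation genes, beside -0.02 for all genes. The histone sum of Aire-KO cycling cells ran from 61.4 to 1557.8 CPM (median 1120.7) and that of WT cycling cells from 28.4 to 2249 (median 514.5), so the sets overlap.

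Whether the Aire-KO effect differed between cycling and non-cycling mTEChi was tested as an interaction. Of 33953 genes, 14 were called (0.0412%), with the Aire-KO effect more positive in cycling cells for 5 and more negative for 9. Those 9 were near the floor in the Aire-KO cycling sum, so their calls are a description. Over plates, without the 6-week pool, 0 were called by edgeR, with 2.42% and 2.02% of genes at an unadjusted p below 0.05 in the respective directions, and DESeq2 over pools called 26 and 5.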

How the data were processed

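RamDA-seq counts per gene in single cells were analysed. Per the labels and the study's methods, the authors trimmed reads with fastp 0.20.0, aligned them with STAR 2.7.3a to mm10, removed low-quality alignments with SAMtools 1.9 and duplicates with Picard 2.21.1, and deposited unstranded htseq-count 0.11.2 counts for cells that passed their filters. Without strand, a gene and its antisense partner cannot be told apart. The 1980 cells include 1469 adult mTEC, of which 52 met the rule and 1190 were non-cycling. The table holds 1 column per cell; 168 cells, 3 of them members, had 2 sequencing runs, and how these were combined is not given in the sources used here. Wells held 1 sorted cell, and no doublet caller was run.

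CPM was computed per cell. Counts were summed per pool and state, with non-cycling cells taken from plates holding a cycling cell of that pool, and tested with edgeR 4.0.16 (R 4.3.3; quasi-likelihood, TMM, filterByExpr, Benjamini-Hochberg), with DESeq2 1.42.0 and limma 3.58.1 as alternatives. Main calls were 766 genes higher and 694 lower. Both states of a pool come from the same plates and from mice of the same age and sex, which is why the pool is the block. Nothing in the labels says that pools are independent beyond age and sex. With the pool as a block, the p-values of state measure how the difference between states varies over these pools only. Shares have exact (Clopper-Pearson) 95% intervals, and a count of 0 allows up to 3 cells. Named genes are members of the lists and, outside them, the 10 largest calls in each direction with a mean of 20 CPM or more in the higher state and 1 direction in all pools, predicted genes left out. The members and lists were chosen with earlier results of these data known. Fits were tested on simulated data, in which those of Aire-KO against WT and of the interaction called none of the changes put in, so their counts of calls do not bear on absence.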

Additional observations from a re-analysis of the deposited data

Results flagged for a closer look

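The Aire-KO effect differed between cycling and non-cycling mTEChi in 14 genes by edgeR's interaction test over pools; each is given with its log2 interaction, the Aire-KO effect in cycling minus that in non-cycling cells, and its CPM in cycling against non-cycling cells in the order 4-week WT, 6-week WT and Aire-KO pool. The fit had 1 residual degree of freedom, and over plates, which hold no cell of the 6-week pool, none of the 14 was called.

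In 3 of them the Aire-KO cycling sum held no read, so the fitted value depends on the prior count: Slc1a2, -12.21 with 12.3, 41.8 and 0 CPM against 98.2, 77.3 and 36. The others were Krt77, -12.07 with 7.14, 51.8 and 0 CPM against 109.8, 119.1 and 50.6, and Anks4b, -11.23 with 2.33, 17.3 and 0 CPM against 104.3, 140.5 and 91. In another 6 the Aire-KO effect was also more negative in cycling cells, with 0.0989 to 0.792 CPM in the Aire-KO cycling sum. These values are near the floor, so these calls and those of the 3 genes above are a description. Shank2, a synaptic scaffold, had an interaction of -8.16 and 23.9, 45.8 and 0.0989 CPM against 66.3, 92.6 and 67.5. The sodium channel Scn3a had -7.88 and 7.33, 94.2 and 0.198 CPM against 49, 63.9 and 99.2. The adenylyl cyclase Adcy1 had -5.93 and 52.6, 4.64 and 0.792 CPM against 141.9, 93.1 and 314.5. Zp2, of the egg coat, had -5.61 and 5.86, 20.9 and 0.297 CPM against 115.3, 155.04 and 176.2. Pamr1 had -4.51 and 7.49, 3.98 and 0.297 CPM against 139.3, 124.2 and 156.3. Rptn, repetin of the cornified envelope, had -3.68 and 5.73, 23.2 and 0.792 CPM against 289.6, 335.6 and 274.9.

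In the other 5 it was more positive. The collagen Col1a1 had an interaction of 7.17 and 2.61, 0.332 and 0.891 CPM against 90.4, 234.3 and 0.508. It was near the floor in every cycling sum, so its call rests on the non-cycling sums and is a description. Smooth muscle actin, Acta2, had 6.62 and 16.8, 0.995 and 208.97 CPM against 33.4, 34.8 and 12.4. The collagen Col6a2 had 5.40 and 11.3, 0.332 and 231.3 CPM against 37.3, 20.1 and 40.7. Afap1l2 had 5.96 and 1.43, 0.332 and 69.6 CPM against 69.4, 76.7 and 79.6. The complement component C3 had 2.49 and 110.3, 70.3 and 423.6 CPM against 1170.05, 992.5 and 907.4. The sums rest on 12 Aire-KO and 38 WT cycling cells; the causes were not tested.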

How the results depend on the processing

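Shares of tested genes called higher and lower in cycling cells were 2.61% and 2.36% over pools. They were 4.91% and 14.8% with DESeq2, 1.02% and 2.25% with no filter on low counts, 5.95% and 23.1% over 7 plates (none of the 6-week pool), 1.04% and 2.13% in WT cells with Aire at 20 CPM or more, and 19.5% and 4.87% with limma. The fit without the replicate block (the pool) gave 4.0% and 6.11%. Setting the rule at 4 of 7 genes, 10 CPM or 50 CPM gave 4.34%, 4.16% and 5.07% lower, and at least 5 cells per pool and state gave 6.71% lower. With 1 pool left out, which leaves 1 residual degree of freedom, the shares ranged from 0.561 to 3.98% higher and from 1.05 to 6.71% lower. Both minima were without the 4-week WT pool and both maxima without the 6-week WT pool, and WT pools alone gave 1.70% and 4.24%. Aire-KO against WT in cycling cells gave 0.0684% and 0.582% with DESeq2, 0.0751% and 0.367% with no filter and 0% under the other settings fitted. The interaction gave 0.0766% and 0.0147% with DESeq2, 0.0553% and 0.0575% with no filter, 0% and 0.00285% with 4 of 7 genes, 0% and 0.00297% with 6 of 7, and 0% and 0% at 10 CPM and over plates. Both could not be fitted at 50 CPM or with a pool left out. The mTEChi minus mTEClo share was 3.19 percentage points over pools (exact permutation p = 0.26) and 6.33 at 10 CPM (exact permutation p = 0.0286). It was 1.63 to 4.25 with 1 pool left out. Over 10 mTEChi and 5 mTEClo units of pool and plate it was 7.27 (exact permutation p = 0.0180). That test treats units that may share mice as replicates. Plate 3 enters it as separate units of the 5-week and 6-week pools, the latter with 1 of 5 cells cycling (20%). Over the 7 plates cycling cells had 26.9% more counts, 11.5% more genes and 7.99% more genes after thinning. Of named genes, Tk1 ranged from -0.0231 to 0.54 on the log2 scale with 1 pool left out, and Krt10 was at 0.33 with limma; 88 of 90 kept their sign in all settings fitted, and 86.9% of comparisons kept their side of the threshold. The causes were not tested. The 6-week pool holds 3 cycling cells, so genes with few counts there have wide errors.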
